A study of Mus musculus with 6 samples.

Results

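The 45 genes described here encode the contractile, calcium handling and energy machinery of adult skeletal muscle, and they were examined in hair follicle stem cells (HFSCs) sorted from mouse skin. They were taken by gene symbol from the deposited count table of 56941 genes, where all 45 were present under 1 identifier each. The symbols had been chosen with this contrast in view, so the differences between the genotypes in these 45 genes, and the calls made on them, are a description and are given without p-values. Total RNA was sequenced from 3 libraries labelled WT and 3 labelled Dab2-cKO. The cells had been sorted for CD34 and α6-integrin, surface proteins of the hair follicle bulge, from dorsal skin of female mice of strain B6;129S4-Dab2tm1Cpr/J at PD68. Dab2 is an endocytic adaptor protein, and the study asked how its loss alters gene expression in HFSCs. Mice of both genotypes were homozygous for the floxed Dab2 allele and received tamoxifen at 75 mg/kg on each of 5 days, and only the Dab2-cKO mice bore the K14CreER transgene, a Cre that tamoxifen activates and that a promoter of basal keratinocytes drives. The WT mice were therefore not without floxed alleles or tamoxifen, and CreER was made only where the K14 promoter is active. The sources used here do not say whether a library came from 1 mouse or from several.

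In skeletal muscle, myosin heads of the thick filament pull on actin of the thin filament, and the filaments are anchored at the Z-disc of the sarcomere. Calcium released from the sarcoplasmic reticulum binds troponin, which moves tropomyosin and lets myosin reach actin, and a calcium pump returns the ion to the store. Fast glycolytic and slow oxidative fibres use separate genes for several of these parts, so pairs of fast and slow isoforms report the fibre type from which an RNA pool came. Keratinocytes use non-muscle actins and myosins, while in mouse skin a sheet of striated muscle, the panniculus carnosus, lies below the dermis.

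The targeted gene went against its label. The Dab2 counts were 304, 368 and 362 in WT-labelled libraries and 1504, 1130 and 1259 in Dab2-cKO-labelled libraries, a log2 fold change of 2.08 (SE 0.08, adjusted p = 3.04e-34 by the quasi-likelihood test of edgeR). The column names of the count table give the second genotype only as floxed, and it was matched to Dab2-cKO through the title of the series, so every direction below depends on that match and on the labels. The libraries held 7040032 to 11696457 counts, and at these totals the limit set by a count of 0 (3 counts) was 2.56e-05% to 4.26e-05% of the counts, for counting error only. Mitochondrial genes took 13.0% to 14.4% of the counts in WT-labelled libraries and 19.1% to 20.3% in Dab2-cKO-labelled libraries. Values below are counts normalized by the TMM method of edgeR, and levels are compared between genes only per kb of exon. As a measure of reads that fall evenly over the genome, 1521 chemosensory receptor genes, most of them silent outside sensory tissues, had a median of 4.94 normalized counts per kb in WT-labelled libraries and 4.84 in Dab2-cKO-labelled libraries, with 95th percentiles of 12.4 and 11.8. Where levels of a gene are set against each other, WT-labelled libraries come before Dab2-cKO-labelled libraries, each in the order of replicates 1 to 3. A value in parentheses after the levels is its log2 fold change, libraries labelled Dab2-cKO over WT.

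All 45 genes passed the expression filter. Of these, 39 were called higher in Dab2-cKO-labelled libraries, 1 was called lower (Tnni1) and 5 were not called (Tnnc1, Tnnc2, Myh7, Myl2 and Myl3). Over all 32149 genes tested, 16.8% were called higher, 11.5% lower and 28.2% in either direction at an adjusted p under 0.05, and since the members were chosen from this contrast nothing is read from the difference. The median log2 fold change of the 45 genes was 2.19, beside -0.02 over all genes tested. The 3 libraries labelled Dab2-cKO lay above all 3 labelled WT for 39 genes, below them for 2 (Tnni1 and Myl3), and overlapped for 4. Among all genes tested, 20.6% were separated upwards and 17.7% downwards.

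**Figure D1:**
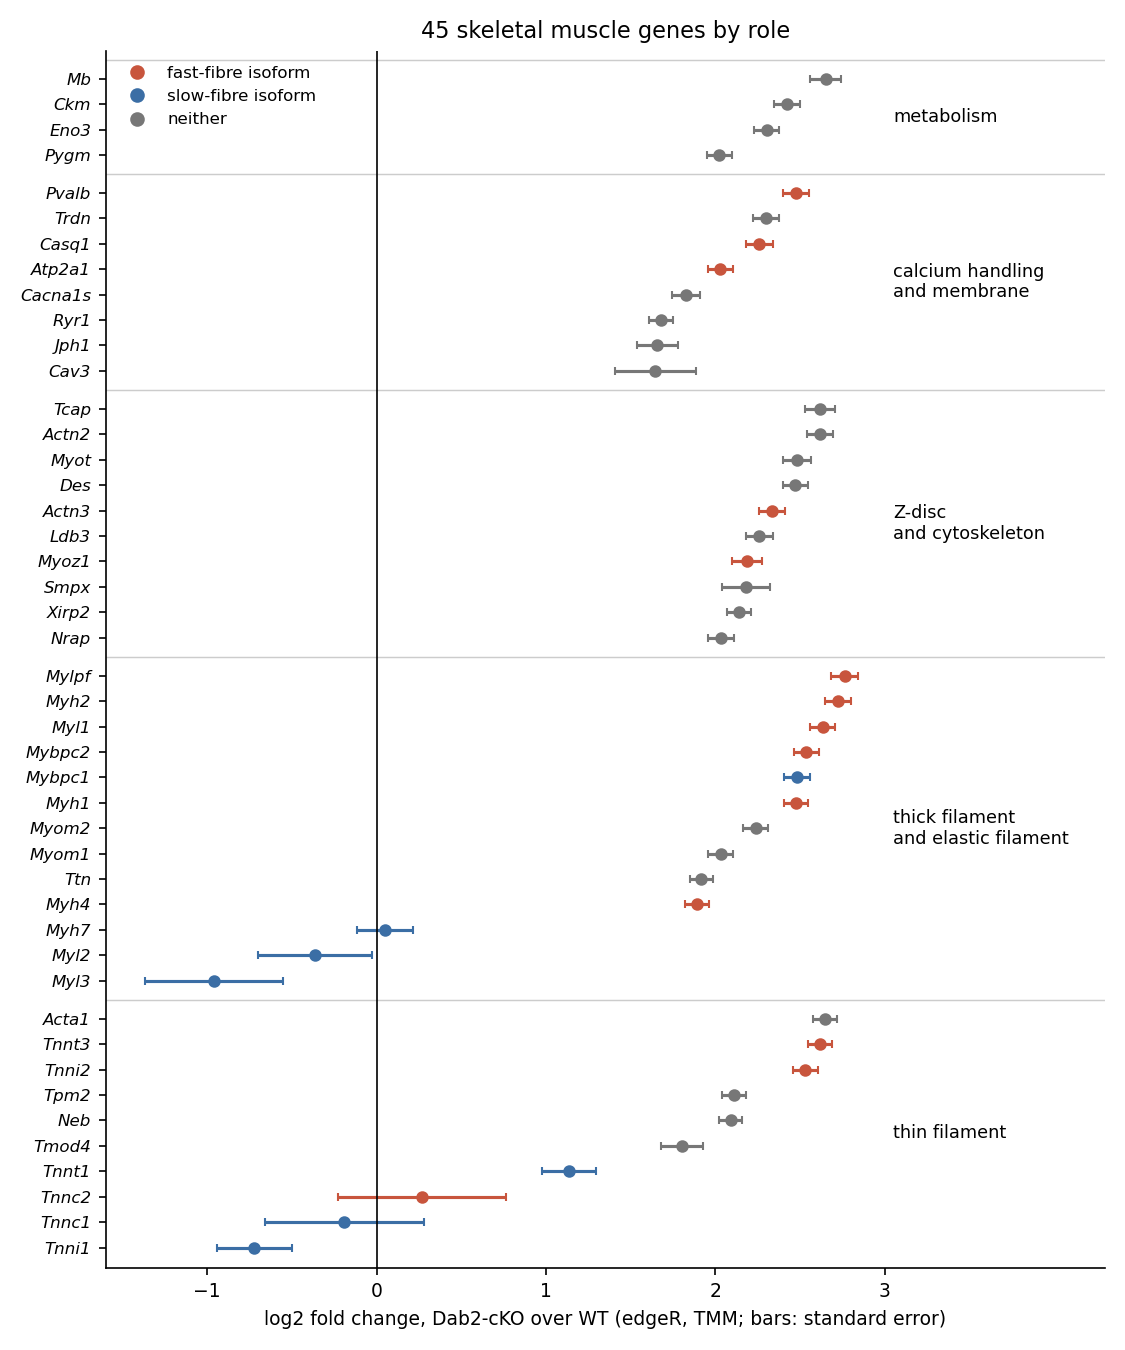
The x axis gives the fitted log2 fold change of each of the 45 genes, libraries labelled Dab2-cKO over WT (n = 3 each), and the bars give its SE, with genes ordered within the 5 roles. Values run from -0.96 for Myl3 to 2.76 for Mylpf, and the 6 genes below 1 are the 5 not called and Tnni1.

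Summed over the 45 genes, the share of all counts was 1.04%, 1.11% and 1.08% in WT-labelled libraries and 3.57%, 3.73% and 3.64% in Dab2-cKO-labelled libraries. The groups did not overlap, and the ratio of the means was 3.38. Counted without mitochondrial and ribosomal RNA genes the ratio was 3.70, and on normalized counts it was 4.53. Muscle genes therefore took over 1% of the counts in WT-labelled libraries too. In bulk RNA of this kind, fewer cells of a type and less RNA per cell cannot be told apart.

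Of the 45 genes, 42 lay above the 95th percentile of the receptor genes in WT-labelled libraries and 41 in Dab2-cKO-labelled libraries. Myh7, Myl2 and Myl3, all slow-fibre genes, lay below it in both, and Tnnc1 lay below it in Dab2-cKO-labelled libraries. The level per kb was led by Acta1 in both groups, at 1730 and 10850 normalized counts per kb. Myh4, Tnni2 and Myh1 followed at 1252, 899 and 748 per kb in WT-labelled libraries. In Dab2-cKO-labelled libraries the next were Tnni2, Myh4 and Mylpf at 5198, 4649 and 4256 per kb. The order of levels thus started with the thin filament actin and fast-fibre isoforms in both groups. Across the 45 genes, the Spearman correlation of the log2 fold change was 0.62 with the level per kb in WT-labelled libraries and 0.01 with exon length, where all points share the same 6 libraries and the former shares the WT level with the ratio.

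**Figure D2:**
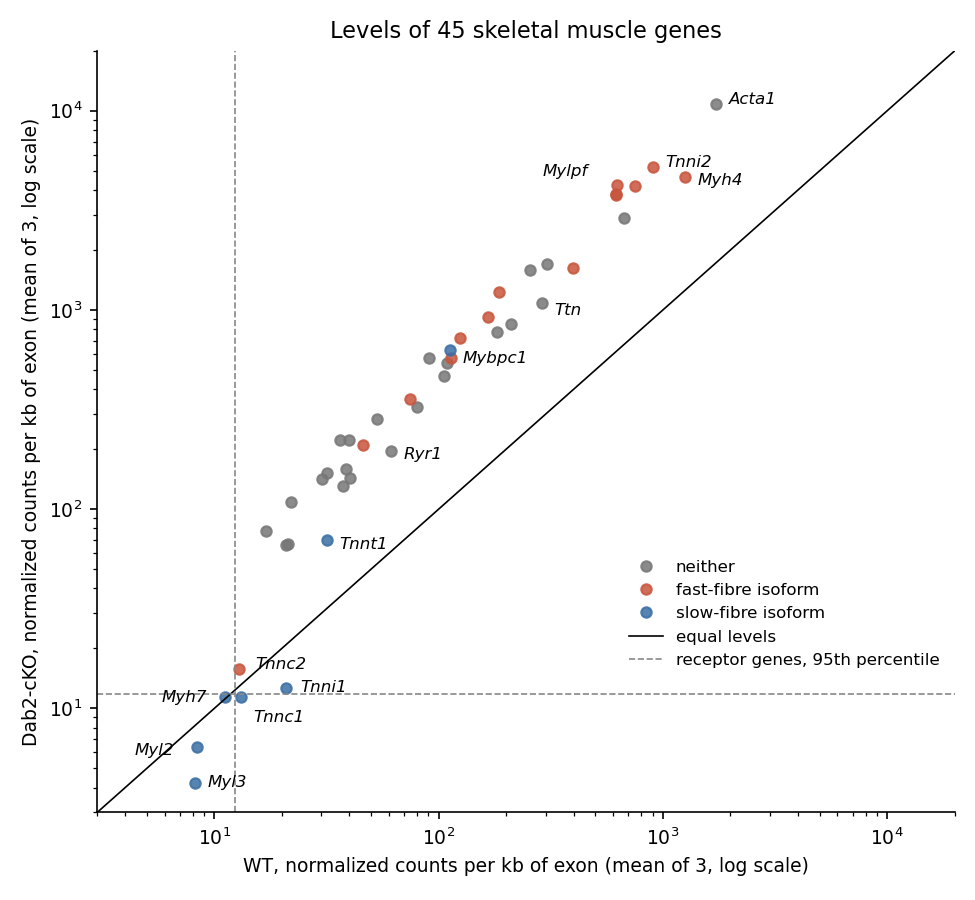
Mean normalized counts per kb of exon of the 45 genes in the 3 libraries labelled WT (x axis) and the 3 labelled Dab2-cKO (y axis), both on log scales, with fast-fibre isoforms in red, slow-fibre isoforms in blue and other genes in grey. Most points lie above the line of equal levels, while 5 of the 7 slow-fibre isoforms lie at the lower end, near the receptor genes (dashed, 12.4 and 11.8 per kb).

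The thin filament genes were higher in Dab2-cKO-labelled libraries for 7 of 10, with a median log2 fold change of 1.95. Acta1 (ENSMUSG00000031972, chr8:124618501-124623661 of GRCm39, minus strand), the skeletal muscle actin, had 5917, 6795 and 6573 normalized counts in WT-labelled libraries and 40446, 40687 and 39792 in Dab2-cKO-labelled libraries. The lowest library labelled Dab2-cKO was far above the highest labelled WT, and the log2 fold change was 2.65 (SE 0.07). Tpm2, a tropomyosin that smooth muscle and non-muscle cells also make, had 2534, 3142 and 2875 against 12294, 12294 and 12380.0 normalized counts, with a log2 fold change of 2.11 (SE 0.07). Its libraries were separate as well, at a fold of 4.32 against 6.27 for Acta1.

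Of the troponin genes, troponin I alone had its isoforms called in opposite directions. Tnnt3 and Tnni2, fast troponin T and fast troponin I, lie close together on chromosome 7, and both were higher in every library labelled Dab2-cKO than in any labelled WT. Tnnt3 had 2613, 2925 and 2810.2 normalized counts in WT-labelled libraries and 16979.9, 17638 and 16679 in Dab2-cKO-labelled libraries (2.62, SE 0.07). Tnni2 had 1411, 1574 and 1491 against 8331, 9208 and 8348 (2.53, SE 0.07). Tnnt1, slow troponin T, had 72.4, 75.8 and 77.8 against 159, 185 and 153 normalized counts, with a smaller difference of 1.13 (SE 0.16) that still left the groups apart. Tnni1 (ENSMUSG00000026418, chr1:135707172-135738727, plus strand), slow troponin I, went the other way: 71.3, 75.8 and 77.8 normalized counts in WT-labelled libraries and 42.0, 52.9 and 41.9 in Dab2-cKO-labelled libraries, a log2 fold change of -0.72 (SE 0.22). It was the only member called lower. At 12.7 normalized counts per kb in Dab2-cKO-labelled libraries, it lay just above the 95th percentile of the receptor genes (11.8). The calcium sensors were at low levels in both groups. Tnnc1, the slow and cardiac troponin C, had 14.5, 12.6 and 16.2 against 16.2, 13.8 and 7.73 normalized counts, and Tnnc2, its fast counterpart, had 5.57, 16.3 and 12.8 against 12.4, 8.05 and 22.1. Both overlapped between the groups, and the difference in Tnnc2 took the opposite sign when replicate 1 labelled WT or replicate 3 labelled Dab2-cKO was left out (-0.03 and -0.20 against 0.27), as it did on library size alone (-0.15). The other thin filament genes were Neb, the ruler protein nebulin (2.09), and Tmod4, which caps filament ends (1.80), both as log2 fold changes with no overlap of libraries.

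Promoter sequence is shown for 4 members: Acta1 as the gene of highest level, Mylpf as the one with the largest difference, Ckm as a metabolic gene and Tnni1 as the member called lower. Each line gives the 250 bases before the start of the canonical transcript of GENCODE vM39 in GRCm39, read 5′ to 3′ on the strand of the gene. The windows are chr8:124621687-124621936 (minus strand) for Acta1, chr7:126810530-126810779 (plus strand) for Mylpf, chr7:19144583-19144832 (plus strand) for Ckm and chr1:135726890-135727139 (plus strand) for Tnni1. All 4 lie inside the annotated gene, since longer transcripts of each start further upstream. Capitals mark matches on either strand to the E-box CANNTG, bound by MyoD and related factors, the TATA box TATAAA, the MEF2 site and the CArG box, which serum response factor binds.
Acta1: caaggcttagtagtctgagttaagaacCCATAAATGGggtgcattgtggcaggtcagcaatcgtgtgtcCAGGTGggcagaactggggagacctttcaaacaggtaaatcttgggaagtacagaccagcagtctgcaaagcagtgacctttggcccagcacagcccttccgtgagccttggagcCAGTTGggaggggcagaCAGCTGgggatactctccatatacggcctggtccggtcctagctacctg
Mylpf: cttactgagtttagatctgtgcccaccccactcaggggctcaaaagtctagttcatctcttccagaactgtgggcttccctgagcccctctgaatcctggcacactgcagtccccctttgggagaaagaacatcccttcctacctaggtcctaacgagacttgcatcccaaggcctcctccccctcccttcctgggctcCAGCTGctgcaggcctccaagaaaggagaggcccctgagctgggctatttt
Ckm: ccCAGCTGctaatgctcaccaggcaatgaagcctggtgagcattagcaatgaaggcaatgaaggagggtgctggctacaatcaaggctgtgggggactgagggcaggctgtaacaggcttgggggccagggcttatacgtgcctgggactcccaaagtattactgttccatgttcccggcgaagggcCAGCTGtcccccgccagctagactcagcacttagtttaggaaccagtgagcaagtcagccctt
Tnni1: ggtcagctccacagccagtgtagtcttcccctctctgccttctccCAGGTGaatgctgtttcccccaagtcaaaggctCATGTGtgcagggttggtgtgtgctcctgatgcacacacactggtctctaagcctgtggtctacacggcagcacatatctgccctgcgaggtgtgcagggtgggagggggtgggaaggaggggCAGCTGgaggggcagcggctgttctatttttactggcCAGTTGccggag
The first 3 windows each held an E-box of the form CAGCTG at 49 to 63 bases before the start, and that of Tnni1 held 1 at 49 bases. Over all members, CANNTG occurred in 35 of the 45 windows (77.8%), beside 64.8% of the windows of 21757 protein-coding genes. The form CAGCTG, which is contained in CANNTG, occurred in 9 (20% beside 11.9%), and TATAAA in 6 (13.3% beside 11.9%). A MEF2 site was found in 5 (Casq1, Myh1, Myoz1, Pvalb and Xirp2), or 11.1% beside 2.80%, and a CArG box in 3 (Acta1, Myl3 and Myom1), or 6.67% beside 1.40%. These are matches of letters within the windows only.

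The thick filament and elastic filament genes were called higher for 10 of 13, with a median log2 fold change of 2.24, and the 3 not called were the slow-fibre genes Myh7, Myl2 and Myl3. The fast myosin heavy chain genes Myh2, Myh1 and Myh4 follow each other on the plus strand of chromosome 11, between 67061838 and 67151274. Myh4, the IIb chain of the fastest fibres, had 7666, 9009 and 8215 normalized counts in WT-labelled libraries and 30475, 31121 and 30829 in Dab2-cKO-labelled libraries (1.89, SE 0.07). Myh1, the IIx chain, had 6181, 7223 and 6593 against 37064, 37567 and 36833 (2.48, SE 0.07). Myh2, the IIa chain of fast oxidative fibres, had 1402, 1792 and 1609 against 10609, 10257 and 10903 (2.72, SE 0.08). In all 3 the groups were far apart, and the difference was smallest for Myh4 and largest for Myh2. Myh7, the slow chain that the heart also uses, had 130.3, 104 and 98.3 against 131, 101 and 108 normalized counts, so that its libraries overlapped (log2 fold change 0.05, SE 0.16).

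As shares of the normalized counts of these 4 adult heavy chains, Myh4 held 49.8%, 49.7% and 49.7% in WT-labelled libraries and 38.9%, 39.4% and 39.2% in Dab2-cKO-labelled libraries. Myh1 held 40.2%, 39.8% and 39.9% and then 47.3%, 47.5% and 46.8%. Myh2 held 9.12%, 9.89% and 9.74% and then 13.6%, 13.0% and 13.9%. The make-up was close to constant among the libraries of a group, and each of these 3 shares was separated between the groups. Myh7 stayed under 1% in every library, at 0.573% to 0.847% in WT-labelled libraries and 0.128% to 0.167% in Dab2-cKO-labelled libraries. These heavy chain genes are near-identical in places: 2% of the 150-base windows of Myh1, 1.84% of Myh2 and 0.517% of Myh4 also occurred in another of them or in Myh8, and 5.51% of those of Myh7 occurred in Myh6, so that some reads could be split between copies.

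**Figure D3:**
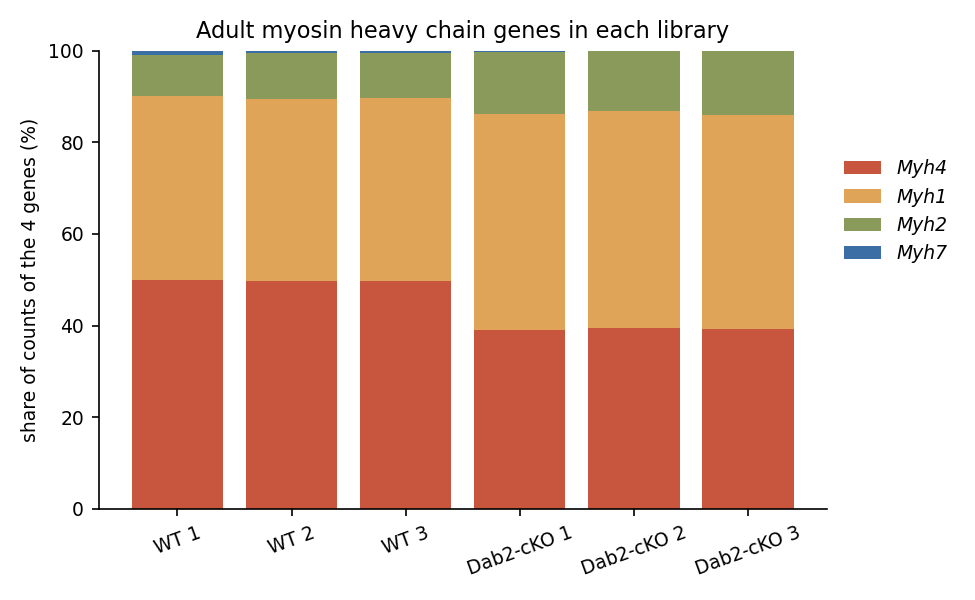
Bars give the share (%) of Myh4, Myh1, Myh2 and Myh7 in the summed normalized counts of these 4 myosin heavy chain genes, 1 bar per library, from 0. Myh4 leads in the 3 libraries labelled WT (49.7% to 49.8%) and Myh1 in the 3 labelled Dab2-cKO (46.8% to 47.5%).

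The light chains followed the same division. Mylpf (ENSMUSG00000030672, chr7:126807207-126813470, plus strand), the fast regulatory light chain, had 688, 865 and 736 normalized counts in WT-labelled libraries and 4978, 5349 and 5237 in Dab2-cKO-labelled libraries, and its log2 fold change of 2.76 (SE 0.08) was the largest of the 45. Myl1, the fast essential light chain, had 1522, 1901 and 1607 against 10511, 10281 and 10446 (2.63, SE 0.08). Both fast light chains were thus separated between the groups by about the same factor. Myl2, the slow and ventricular regulatory light chain, had 44.5, 30.7 and 19.7 against 21.0, 23.0 and 28.7 normalized counts, which overlapped. Myl3, the slow essential light chain, had 27.8, 21.7 and 25.6 against 11.4, 11.5 and 15.5, a log2 fold change of -0.96 (SE 0.41), the lowest of the 45. All libraries labelled Dab2-cKO were below WT-labelled libraries for Myl3, yet the gene was not called and its level did not reach the 95th percentile of receptor genes in either group. Of the myosin-binding proteins C, the slow Mybpc1 had 743, 945 and 908 against 4917, 4875 and 4722 (2.48, SE 0.08) and the fast Mybpc2 665, 705 and 791 against 4284, 4163 and 4121 (2.54, SE 0.08). These isoforms differed between the groups to the same degree, although Mybpc1 bears the name of the slow form. Ttn (chr2:76534136-76812891, minus strand), the giant spring titin, differed less, at 1.92 (SE 0.07), and took 38.0% to 38.5% of the counts of the 45 genes in WT-labelled libraries and 31.8% to 32.1% in Dab2-cKO-labelled libraries. The M-band proteins Myom1 and Myom2 had log2 fold changes of 2.03 and 2.24.

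All 10 Z-disc and cytoskeletal genes were called higher, with log2 fold changes between 2.03 and 2.62 and a median of 2.30. Des, the intermediate filament protein desmin that links Z-discs, had 1384, 1729.7 and 1593 normalized counts in WT-labelled libraries and 8694, 8629 and 8815 in Dab2-cKO-labelled libraries (2.47, SE 0.07). Tcap, the titin cap, had 195, 283 and 251 against 1480.0, 1582 and 1445 (2.62, SE 0.09). Actn3, the alpha-actinin of fast fibres, had 554, 610.3 and 562 against 2828, 3095 and 2796 (2.33, SE 0.07). For none of these did any libraries of the groups overlap. Xirp2, an actin-binding protein of the myotendinous junction and intercalated disc, had 1409.6, 1667 and 1494 against 6679, 6609 and 6876 (2.14, SE 0.07). The other members were Actn2 (2.62), the alpha-actinin of all fibres, the Z-disc proteins Myoz1 (2.19), Myot (2.48) and Ldb3 (2.26), the small cytoskeletal protein Smpx (2.18) and Nrap (2.03), an anchor of terminal actin filaments. The spread of these log2 fold changes was narrow beside that of the thin filament genes, which ran from -0.72 to 2.65.

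The calcium handling and membrane genes were called higher in 8 of 8, and their median log2 fold change of 1.93 was the lowest of the 5 roles. Atp2a1, the calcium pump of fast fibres, had 2414, 2918 and 2703 normalized counts in WT-labelled libraries and 10970.2, 10904 and 10961 in Dab2-cKO-labelled libraries (2.03, SE 0.07). Pvalb, the calcium buffer parvalbumin of fast fibres, had 590.1, 645 and 620.3 against 3379.6, 3685 and 3282 (2.48, SE 0.08). Casq1, the calcium-binding calsequestrin of the store, had 396, 509 and 479 against 2251, 2177 and 2227 (2.26, SE 0.08). These 3 fast-fibre genes were separated by a factor of 4.08 to 5.57. Ryr1, the calcium release channel, had 1217, 1401 and 1400.4 against 4334, 4334 and 4217 (1.68, SE 0.07), and Cacna1s, the voltage sensor that opens it, had a log2 fold change of 1.83 (SE 0.08). Trdn, the triadin that holds calsequestrin at the channel, differed by 2.30. The smallest differences among all genes called higher, apart from Tnnt1, were those of Cav3, the muscle caveolin (1.65, SE 0.24), Jph1, which ties the store to the surface membrane (1.66, SE 0.12), and Ryr1. For Cav3, the member of this role with the fewest counts, the libraries were still separate, at 23.4, 32.5 and 26.5 against 99.2, 84.0 and 76.2 normalized counts.

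The 4 metabolic genes were all called higher, with a median log2 fold change of 2.36. Mb, the oxygen carrier myoglobin, had 161, 230.2 and 227 normalized counts in WT-labelled libraries and 1302, 1308 and 1314 in Dab2-cKO-labelled libraries (2.65, SE 0.09). Ckm (ENSMUSG00000030399, chr7:19138701-19157965, plus strand), the muscle creatine kinase, had 509, 557 and 499 against 2804, 2788 and 2808 (2.42, SE 0.07). Eno3, the muscle enolase, had 587, 627 and 580.2 against 2947, 3072 and 2834 (2.30, SE 0.07). The libraries of each group lay close together in all 3, and the groups were far apart. Pygm, the muscle glycogen phosphorylase, had 719, 861 and 827 against 3228, 3328 and 3250.3 (2.02, SE 0.07). Mb, most abundant in oxidative fibres, differed by as much as Acta1, and Pygm differed least of the 4.

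By fibre type, 13 of 14 fast-fibre genes were called higher, with a median log2 fold change of 2.48 and Tnnc2 as the exception. Of 7 slow-fibre genes, 2 were called higher (Tnnt1 and Mybpc1), 1 lower (Tnni1) and 4 were not called, with a median of -0.19. The remaining 24 genes, which both fibre types use, were all called higher with a median of 2.16. The fast isoform's share of each fast and slow pair, on levels per kb, already exceeded 95% in every library for 5 of the 7 pairs. For the heavy chains it was 99.5% ± 0.116 (SD, n = 3) in WT-labelled libraries and 99.9% ± 0.0159 in Dab2-cKO-labelled libraries. For troponin T it was 95.1% ± 0.174 and 98.2% ± 0.129, and for troponin I 97.7% ± 0.0882 and 99.8% ± 0.0190. The regulatory and essential light chains both moved from a mean of 98.7% to 99.9%. In these 5 pairs the lowest library labelled Dab2-cKO lay above the highest labelled WT. In troponin C (47.6% ± 14.6 and 56.0% ± 19.2) and myosin-binding protein C (52.6% ± 2.45 and 53.5% ± 0.303) the groups overlapped. The median difference over the 7 pairs was 1.23 percentage points, and it was 0.827 points once an even background, set from the receptor genes, was subtracted from each gene, an alternative chosen after seeing the data. With that subtraction the slow light chain Myl3 fell to 0 in 2 libraries labelled Dab2-cKO, where the fast share was therefore 100%. The regulatory light chain pair then overlapped between the groups, with replicate 3 labelled WT at 99.96% and replicate 3 labelled Dab2-cKO at 99.94%. The heavy chain, essential light chain, troponin T and troponin I pairs stayed separate.

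**Figure D4:**
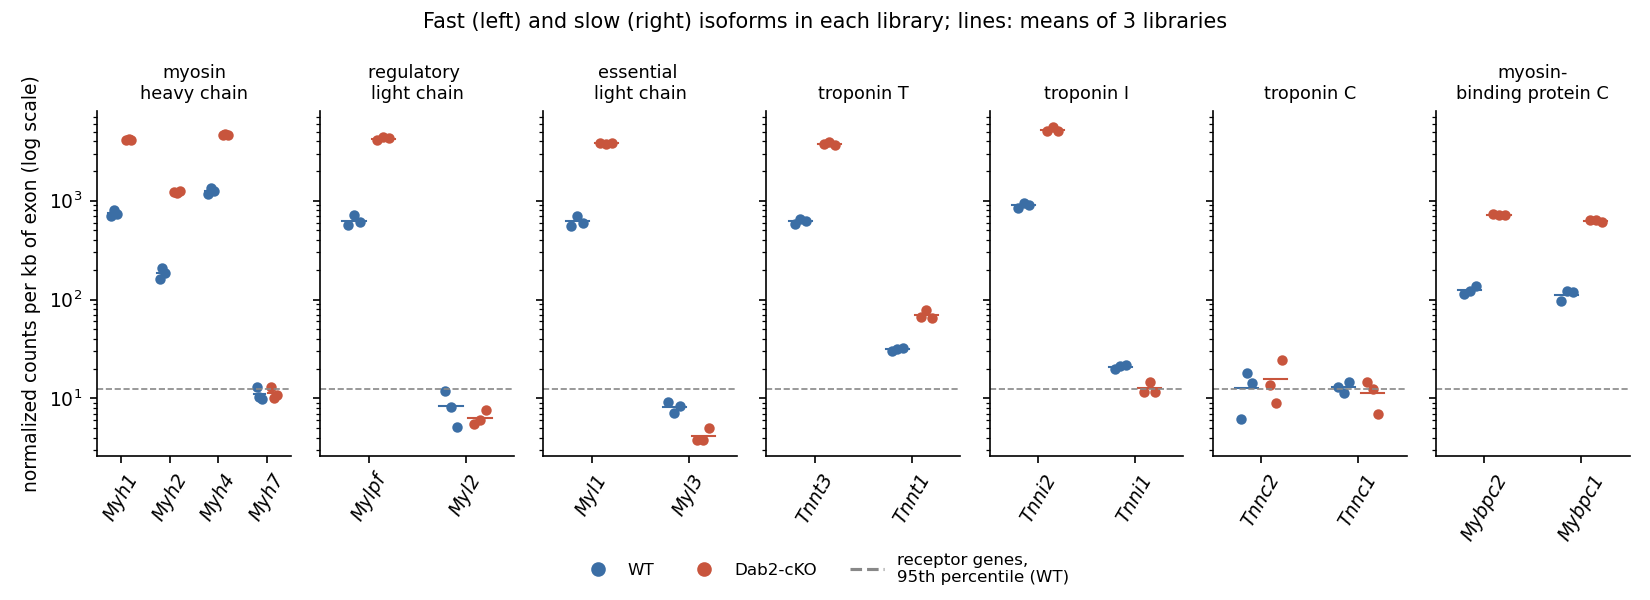
Each panel plots the normalized counts per kb of exon (y axis, log scale) of the fast and slow isoforms of a protein in each of the 6 libraries, coloured by genotype label, with lines at the means and the 95th percentile of the receptor genes dashed. The fast isoforms other than Tnnc2 stand higher in the 3 libraries labelled Dab2-cKO, while the slow Myh7, Myl2 and Tnnc1 overlap between the groups.

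Some of these values have limits of annotation. Tnnc2 shares 68.7% of its exon bases with Ube2c, a cell-cycle gene on the opposite strand, whose counts were 103, 199 and 188 in WT-labelled libraries and 52, 38 and 64 in Dab2-cKO-labelled libraries. The library kit marks strand, but the strand setting of the counting is not given in the sources used here, so reads of Tnnc2 and Ube2c may not be told apart and the troponin C pair is uncertain. Opposite-strand overlaps of 17.6% to 30.6% of exon bases were found for Mb, Mylpf, Actn3, Ckm, Myh7, Eno3, Cacna1s and Atp2a1. After subtraction of the even background, the median log2 ratio of the 41 members above the receptor genes in both groups was 2.39, against 2.26 without it.

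The lists of other genes described from here on were also written with earlier results of these data known, so their calls too are a description without p-values and no independent support for those of the 45 genes. Of 34 further contractile and Z-disc genes, 29 were called higher and none lower by edgeR, with a median log2 fold change of 1.64. The largest were Csrp3, a muscle LIM protein (2.98), Mybph, a myosin-binding protein (2.63), and Hspb7, a small heat-shock protein (2.59). Of 29 further calcium handling and membrane genes 26 were called higher and none lower, with a median of 1.41. They were led by Cacng1, a subunit of the muscle calcium channel (2.26), Hrc, a calcium-binding protein of the store (2.16), and Tmem38a, its potassium channel (2.14). All 18 further metabolic genes were called higher, with a median of 1.82, led by Fabp3, a fatty acid carrier (2.93), Fbp2, a muscle fructose bisphosphatase (2.43), and Pgam2, the muscle phosphoglycerate mutase (2.26). All exon bases of Pgam2 and 63.3% of those of Mybph are overlapped on the opposite strand. In WT-labelled libraries Mybph, Cacng1, Fabp3 and Fbp2 lay below the 95th percentile of the receptor genes, so their ratios start from levels within that range. In these 3 lists 0 genes were lower by edgeR at an unadjusted p under 0.05, and 0 by DESeq2. In these 3 lists 8 genes were not called. They were Casq2 (0.32) and Pln (-0.06), both of slow fibres and heart, and Myh13 (-0.09), the myosin of eye muscles. The others were Capn3 (-0.04), Chrne (-0.08), Pdlim7 (0.07), Ankrd1 (-0.18) and Myl6b (0.29).

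Of 17 tested genes of myogenic regulation and satellite cells, the muscle stem cells, 9 were called higher and none lower by edgeR, with a median log2 fold change of 0.63, and 0 were lower at an unadjusted p under 0.05 or by DESeq2. On library size alone 5 were higher and 1 lower, and against a 1.5-fold change 5 were higher. The genes called higher were led by the transcription cofactor Vgll2 (3.07) and included the transcription factor Mef2c (1.78), which is also active in endothelial and immune cells. Vgll2 had only 2.62 normalized counts per kb in WT-labelled libraries, below the median of the receptor genes (4.94). Defining satellite cell and myoblast genes were not called: Pax7 had 49.0 ± 11.8 normalized counts in WT-labelled libraries and 66.9 ± 9.15 in Dab2-cKO-labelled libraries (mean ± SD, n = 3), Myf5 17.4 ± 0.402 against 14.1 ± 5.07, and Myog 15.1 ± 4.93 against 29.0 ± 7.48. Pax7 and Myf5 lay below the 95th percentile of the receptor genes in both groups. Of 6 embryonic and neonatal isoforms 2 were called higher, beside 16.8% of all genes tested. They were the neonatal myosin Myh8 (1.73) and the cardiac actin Actc1 (0.88), and Actc1 was not called on library size alone (0.45). At 7.38 normalized counts per kb in WT-labelled libraries, Actc1 lay below the 95th percentile of the receptor genes. The embryonic myosin Myh3 was not called (0.33). None of 6 tested heart genes was called by edgeR in either direction, with 0 at an unadjusted p under 0.05 and 0 called by DESeq2. Their median was -0.05 and the ratio of summed normalized counts of the list was 0.930. The cardiac myosin Myh6 had 115 ± 23.4 against 118 ± 13.3 normalized counts. Of the 8 genes in this list, 3 lay above the 95th percentile of the receptor genes in both groups. Myh6 lay below it in WT-labelled libraries (11.6 per kb), so these levels limit what the list can show.

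Of 11 smooth muscle genes, 8 were called higher and 1 lower, with a median log2 fold change of 1.04. Rgs5, of pericytes (1.93), Synpo2 (1.91) and the myosin Myh11 (1.66) rose most, and Smtn fell (-0.39). The summed level of the list was 4096 to 4525 normalized counts in WT-labelled libraries and 9724 to 9964 in Dab2-cKO-labelled libraries. The ratio of these sums was 2.30, beside 4.53 for the 45 skeletal muscle genes.

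The non-muscle genes that do the same work in other cells went both ways. Of 22 such counterparts 8 were called higher and 3 lower, 11 were not called, and the median log2 fold change was 0.11. Vim, the intermediate filament vimentin of mesenchymal cells, rose by 1.82 and Cav1, the broad caveolin, by 1.45. The calcium pump gene Atp2a3 rose by 0.81. The non-muscle myosin Myh14 (-1.51) and the non-muscle alpha-actinins Actn1 (-0.83) and Actn4 (-0.74) fell. The cytoplasmic actin Actb had 13052 ± 949 against 14192 ± 253 normalized counts and was not called, beside the change of 2.65 in Acta1, and Eno1, the general enolase, was not called either (0.01). The balance in this list rests on the scaling, with 4 higher and 13 lower on library size alone and 7 higher and 7 lower with upper quartiles, and on 1 library, with 7 lower when replicate 1 labelled WT was left out. Over all 32149 genes tested, 16.8% were called higher and 11.5% lower. That made 9069 genes called, against 13854 on library size alone.

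Markers of other cell types moved with the muscle genes, and their part in the result was not tested. All 8 fibroblast genes were called higher (median log2 fold change 1.77), and their summed level was 103644 to 125328 normalized counts in WT-labelled libraries and 363213 to 383179 in Dab2-cKO-labelled libraries. All 6 endothelial genes were higher (1.84, sums of 962 to 1157 and 3890 to 3919) and so were all 5 erythrocyte genes (2.73, sums of 244 to 274 and 1467 to 1601). Of 8 adipocyte genes 7 were higher and 1 lower (1.47, sums of 4146 to 4635 and 11449 to 11802), of 6 immune genes 5 were higher (1.76, 1639 to 1798 and 7374 to 7553), and of 5 Schwann cell genes 3 (1.13, 607 to 692 and 1566 to 1698). No marker was at 0 in all libraries of a group. Examples are the matrix proteins Col3a1 (1.98) and Lum (2.19), the endothelial Pecam1 (1.88), the adipocyte Adipoq (1.70), the haemoglobin Hba-a1 (3.60) and the macrophage lysozyme Lyz2 (2.53). The adipocyte hormone Lep was called lower (-0.46), a call lost when replicate 2 of either group was left out.

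Of 11 bulge and basal keratinocyte genes, which the sort should retain, 7 were called higher and 3 lower, with a median log2 fold change of 0.62, and all 11 lay above the 95th percentile of the receptor genes in both groups. Cd34 itself, the gene of a sort marker, rose by 1.80, and Itga6, the gene of the other, by 0.55. The regulator of quiescence Nfatc1 rose by 1.32 and the hemidesmosome collagen Col17a1 by 1.01. Sox9 (-1.45), Lhx2 (-1.43) and Lgr5 (-1.32), genes of follicle stem cells, fell. The summed level of this list was 20946 to 23993 normalized counts in WT-labelled libraries and 36968 to 38038 in Dab2-cKO-labelled libraries, a ratio of 1.66 beside 4.53 for the 45 skeletal muscle genes.

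**Figure D5:**
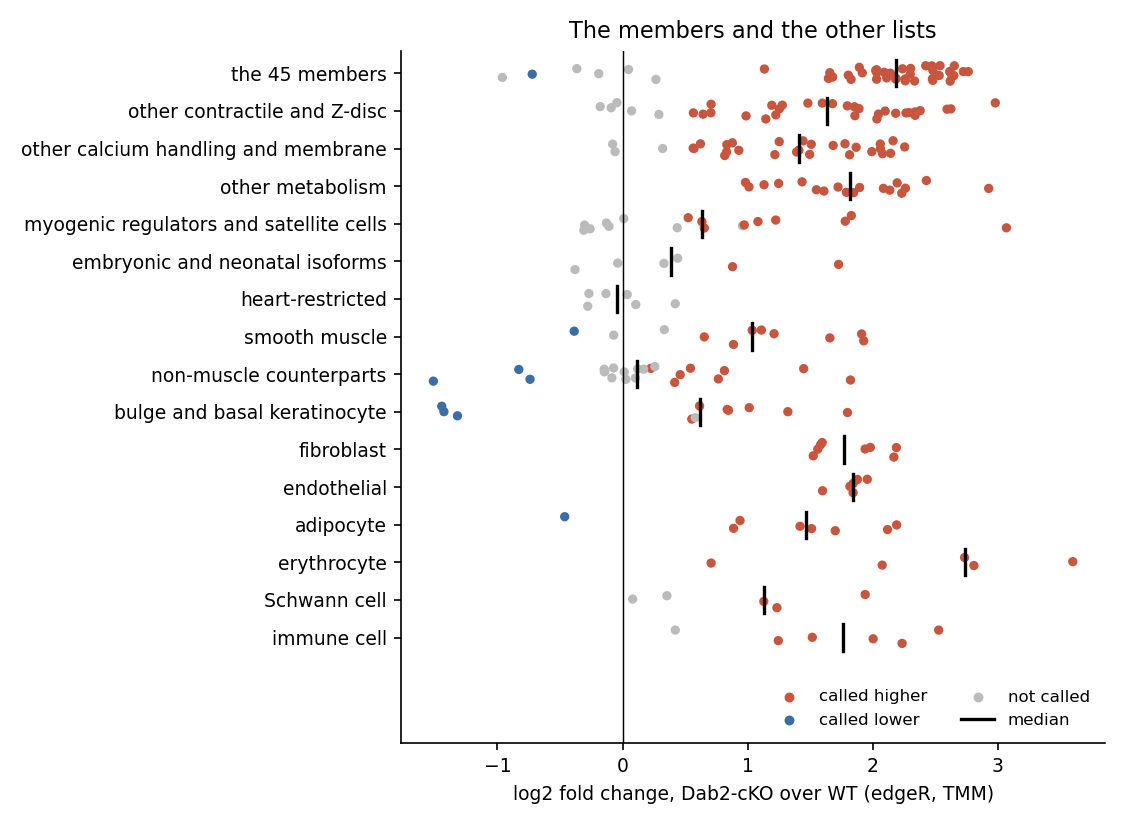
Each point is the log2 fold change of 1 gene, libraries labelled Dab2-cKO over WT (edgeR, n = 3 each), for the 45 skeletal muscle genes and the other lists, with called genes in colour and the median of each list as a bar. The medians run from -0.05 in heart genes to 2.73 in erythrocyte genes, beside 2.19 for the 45 genes.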

How the data were processed

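Total RNA of sorted HFSCs was measured in 6 libraries, 3 per genotype label. Per the submitters' processing notes the tools included fastp 0.23.4, HISAT2 2.2.1, featureCounts 2.0.6 and DESeq2 1.42.0, with the build GRCm39. The authors deposited raw counts per gene without normalization, and these were used for every value. The strand setting, the handling of reads with several positions and the annotation release are not given in the sources used here. A second deposited table holds the authors' own DESeq2 fold changes, p-values and scaled counts and was not used. Libraries were grouped by the genotype in the sample labels, and columns by their names, of which 0 belonged to no known sample.

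The 45 genes and all other lists were chosen with earlier results of these data known. Genes were filtered by expression, normalized by TMM and compared by the quasi-likelihood test of edgeR 4.0.16 in R 4.3.3 with Benjamini-Hochberg adjustment over the 32149 genes tested, a procedure tested on simulated data. A gene was called at an adjusted p under 0.05. To normalize, each count was divided by its library's total times its TMM factor and then multiplied by the average of these products. Exon lengths, overlaps and coordinates came from GENCODE vM39, to which 56323 of the 56941 gene identifiers matched, and the promoter windows were read from GRCm39. The labels call the libraries biological replicates without naming animals, so p-values measure the spread between these libraries.

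Genes given per library were both isoforms of each fast and slow pair, the 4 members of highest level per kb in each role and the 2 members at each end of the fold changes. In other lists up to 3 called genes in each direction with a mean of at least 20 normalized counts were named, apart from genes that are not reported here, and genes named there without a call were chosen after their values were seen, as was Cav3 for its values per library. Same-numbered libraries of the 2 genotypes did not deviate together (correlations of 0.07, -0.01 and 0.06), so the replicate numbers were not taken as pairs. Replicates of a genotype differed beyond counting noise in every pair. Alternatives were DESeq2, other scalings and filters, a replicate block, a test against a 1.5-fold change, leaving out each library, and the subtraction of an even background.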

Additional observations from a re-analysis of the deposited data

How the results depend on the processing

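The members called higher numbered 39 under all 14 alternatives of the fit. Library size alone moved the median of all genes to -0.45 and upper-quartile scaling to -0.17, and the median log2 fold change of the 45 genes moved from 2.19 to 1.76 and 2.05. Subtraction of the even background, chosen after seeing the data, gave 2.39 over the 41 members above the receptor genes. With the replicate block the median was 2.195, 8967 genes were called against 9069 without it, and no list count moved by over 1.5 times.

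Members called lower (1 in the report) numbered 2 on library size alone and with upper quartiles and 0 against a 1.5-fold change. On library size alone, 2 other skeletal muscle genes were lower against 0. Myogenic and satellite cell genes were higher in 5 against 9 both on library size alone and against a 1.5-fold change, and lower in 1 against 0 on library size alone. Embryonic, heart and smooth muscle genes were lower in 5 on library size alone, 2 with upper quartiles, 2 at a mean count of at least 50 and 0 against a 1.5-fold change, against 1. The non-muscle counterparts were higher in 4 on library size alone and 2 against a 1.5-fold change, against 8, and lower in 13 on library size alone, 7 with upper quartiles, 6 with TMM factors computed without mitochondrial and the 100 most abundant genes, 5 without a filter and 7 at a mean count of at least 50, against 3. With each library left out in turn, 3 to 7 of them were lower, the 7 without replicate 1 labelled WT. The summed share ratio of 3.38 became 3.70 without mitochondrial and ribosomal RNA genes. The median difference in fast share of 1.23 points became 1.68 when not taken per kb and 0.827 with the even background subtracted, and lay between 1.10 and 1.45 with each library left out. No called member turned in direction, and neither did a called gene that was named from another list by the rule above. Other called genes were not checked for this. Of the genes named by that rule, Lep lost its call under DESeq2, without replicate 2 labelled WT and without replicate 2 labelled Dab2-cKO, and Actc1 on library size alone. Apart from the choice of scaling and of filter themselves, the cause was not tested. Levels of Myh7, Myl2 and Myl3 within the range of the receptor genes limit what can be said of these slow-fibre genes.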
